A study of Mus musculus with 21 samples.

Results

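The TCF/LEF family of HMG-box transcription factors has 4 members in the mouse, *Tcf7* (the gene of TCF1), *Tcf7l1*, *Tcf7l2* and *Lef1*. They were taken by symbol from the QuantSeq table, 4 of its 55421 genes, together with every ChIP-seq peak whose nearest gene in the peak lists was a member. Expression was measured in *Ebf1*-deficient LPs, a C57BL6/J lymphoid progenitor line kept on OP9 stromal cells with SCF, IL-7 and Flt3L. All cells carried Cas9 and received a retroviral pool of 2 sgRNAs, directed against luciferase (sgControl), *Lmo2*, *Zbtb1*, *Cbfa2t2* or *Cbfa2t3*. Cells expressing both GFP and hNGFR were sorted 5 days later without Notch stimulation, with 3 biological replicates per condition and 15 libraries in all. Each library is a sorted population of mixed edits from 1 cell line. ChIP-seq against Zbtb1 and Cbfa2t3 came from LPs without sgRNAs.

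TCF/LEF factors share a DNA-binding domain and act as switches. With β-catenin, which Wnt signals stabilise, they recruit co-activators, and without it they recruit Groucho/TLE co-repressors. *Tcf7* is an early target of Notch in thymic progenitors and starts the T-lineage program with *Gata3* and *Bcl11b*, and *Lef1* overlaps with it in later thymocytes. *Tcf7l2* is best known as the Wnt effector of the gut epithelium, and *Tcf7l1* as a repressor in stem cells.

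The libraries held 1705416 to 2095447 reads. A value of 3 reads, the smallest amount taken as measurable, corresponded to 1.43 to 1.76 CPM (reads scaled to the same total in every library), which covers counting error only. QuantSeq gives reads near the 3′ end of an mRNA, so that CPM does not grow with transcript length. Different genes are set side by side below by their reads only. How fully the 3′ ends of each gene were read was not tested. The GENCODE annotation lists 20 transcript ends for *Tcf7l2* and 2 for *Tcf7*. *Zbtb1* mRNA was at 94.4, 113.3 and 109.0 CPM in the libraries labelled sgZbtb1 and at 62.7, 66.6 and 55.7 CPM in sgControl (limma adjusted p = 0.00102). It was thus higher under its own sgRNA, and so was *Cbfa2t3* mRNA in the libraries labelled sgCbfa2t3 (limma adjusted p = 1.67e-07). *Cbfa2t2* was at 25.5, 23.9 and 16.4 CPM in sgCbfa2t2 and at 11.0, 12.2 and 12.3 CPM in sgControl, and the log2 difference of 0.82 did not pass (limma adjusted p = 0.412). *Lmo2* was at 8.48, 24.4 and 15.9 CPM in sgLmo2 and at 23.2, 16.2 and 15.8 CPM in sgControl, and its log2 difference of -0.26 did not pass either (limma adjusted p = 0.957). A Cas9 edit need not lower the mRNA, and protein, which the study examined by immunoblotting and these reads do not measure, was not analysed here. Every direction below is that of the libraries labelled with an sgRNA. All 7 lymphoid progenitor markers were detected. *Ebf1* reads were present in sgControl at 336 CPM, although the line is named for its deficiency. Reads near the 3′ end need not lie in the deleted part of the gene, so that they check nothing about the deletion.

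*Tcf7l2*, not *Tcf7*, was the member with the most reads. Of the 300 reads that the 4 genes received over the 15 libraries, *Tcf7l2* had 235, or 78.3%. *Tcf7* had 40 reads, *Tcf7l1* 14 and *Lef1* 11. The mean levels over the libraries followed the same order, with 8.43, 1.45, 0.497 and 0.394 CPM. *Tcf7l2* alone had the most reads of the family in 12 of the 15 libraries. The exceptions were sgControl replicate 2, where *Tcf7* led with 9 reads, and replicates 1 and 2 of sgZbtb1. The order of *Tcf7*, *Tcf7l1* and *Lef1* is not resolved, since their libraries overlap and most of them lie under 3 reads.

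**Figure D1:**
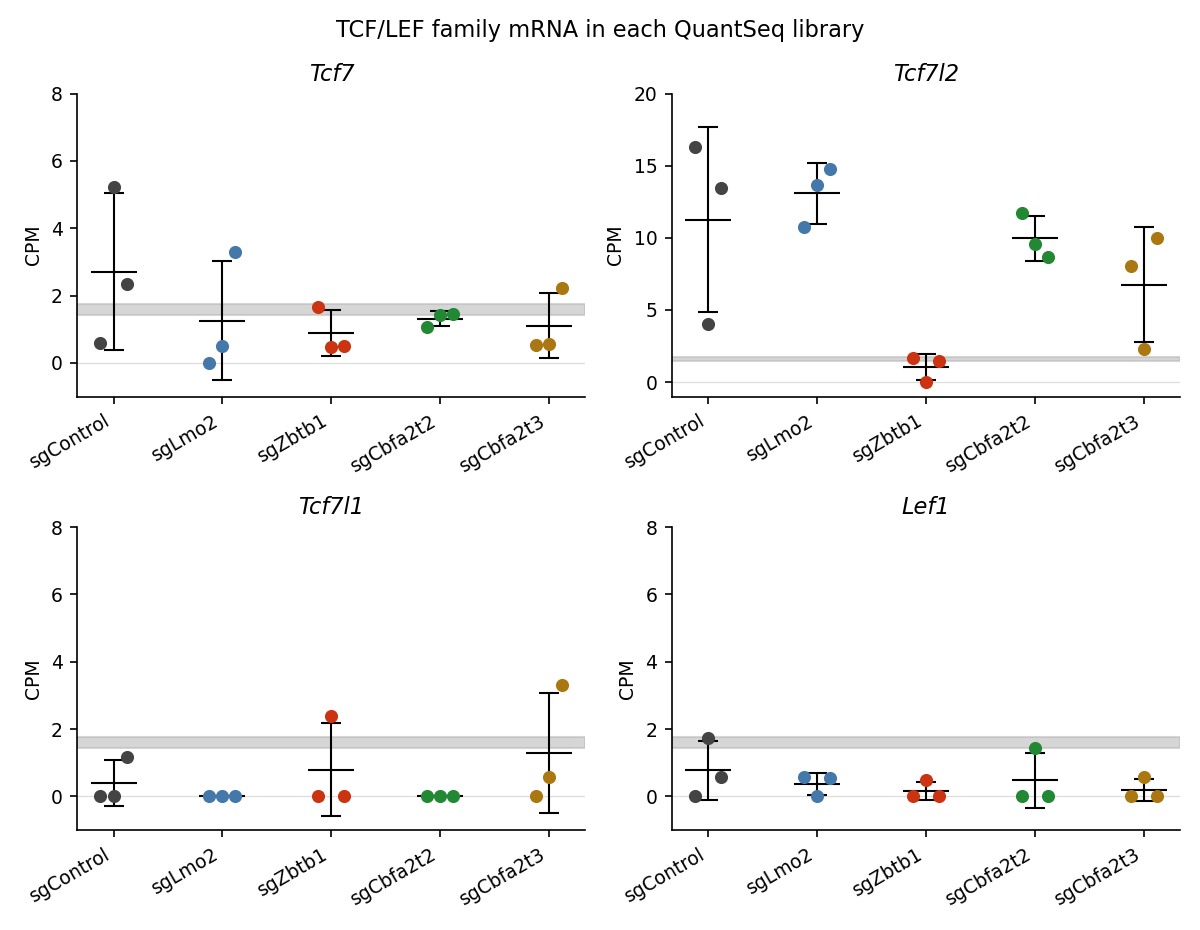
CPM of the 4 TCF/LEF genes (y axis, linear) in the 5 conditions (x axis). Each point is 1 library, the horizontal line is the mean, the error bar is the SD (n = 3) and the grey band is the value of 3 reads, 1.43 to 1.76 CPM. The 3 sgZbtb1 libraries of *Tcf7l2* lie at 0 to 1.68 CPM, under each of the 12 other libraries. The *Tcf7l2* panel reaches higher on its axis than the other 3.

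*Tcf7l2* (ENSMUSG00000024985) lies on the plus strand of chromosome 19 of mm10, from 55741820 to 55933654. The sgControl libraries were at 16.3, 4.05 and 13.5 CPM, which were 28, 7 and 23 reads. The libraries labelled sgZbtb1 were at 1.68, 0 and 1.47 CPM, which were 3, 0 and 3 reads. None of the sgZbtb1 libraries was over the 3-read floor, and all 3 were below the lowest sgControl library. *Tcf7l2* fell from 11.3 ± 6.40 to 1.05 ± 0.914 CPM (SD over 3 libraries each). The log2 fold change was -2.53 on the log2(CPM + 1) scale (standard error 0.47, 95% interval -3.46 to -1.59, limma adjusted p = 0.000145). In this comparison 4.79% of the 11554 genes tested passed the adjusted threshold of 0.05, and *Tcf7l2* ranked 81 among them by p. By an exact permutation test (two-sided) over the 6 libraries p was 0.1, the smallest that 3 against 3 allow. Summed over the 3 libraries, 6 reads stood against 58, so that the level was 11.1-fold lower (95% counting interval 4.80-fold to 31.5-fold, which does not include the replicate error).

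No other sgRNA changed *Tcf7l2* by more than the replicate error. In the libraries labelled sgLmo2 it was at 10.7, 13.7 and 14.8 CPM, with a log2 fold change of 0.37 (95% interval -0.56 to 1.30, limma adjusted p = 0.957). Those labelled sgCbfa2t2 were at 11.7, 9.54 and 8.69 CPM, a log2 fold change of 0.01 (95% interval -0.92 to 0.95, limma adjusted p = 0.996). Those labelled sgCbfa2t3 were at 8.04, 2.28 and 9.97 CPM, a log2 fold change of -0.65 (95% interval -1.58 to 0.28, limma adjusted p = 0.667). All of these libraries lay within the range of sgControl except for sgCbfa2t3 replicate 2, which lay below it with 4 reads. In these comparisons 0.0173%, 0.147% and 0.537% of all genes tested passed the threshold. The intervals still allow a change of up to about 1 log2 unit in either direction in sgCbfa2t2, and a larger fall in sgCbfa2t3.

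The difference between the sgRNAs was tested directly, in comparisons added after the values were seen. *Tcf7l2* was lower in the libraries labelled sgZbtb1 than in those labelled sgLmo2 by a log2 difference of -2.90 (limma adjusted p = 9.14e-06), where 5.06% of all genes passed. Against sgCbfa2t2 the log2 difference was -2.54 (limma adjusted p = 0.000228), where 2.27% passed. Against sgCbfa2t3 it was -1.87 (limma adjusted p = 0.0209), where 1.13% passed. All 12 libraries without the sgZbtb1 label, from 2.28 to 16.3 CPM, were above the highest sgZbtb1 library. The comparison with sgCbfa2t3 was the least firm, since it lost its call when sgZbtb1 replicate 2 (adjusted p = 0.236), sgCbfa2t3 replicate 1 (adjusted p = 0.136) or sgCbfa2t3 replicate 3 (adjusted p = 0.192) was left out. The same libraries enter several of these comparisons, which are not independent of each other.

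**Figure D2:**
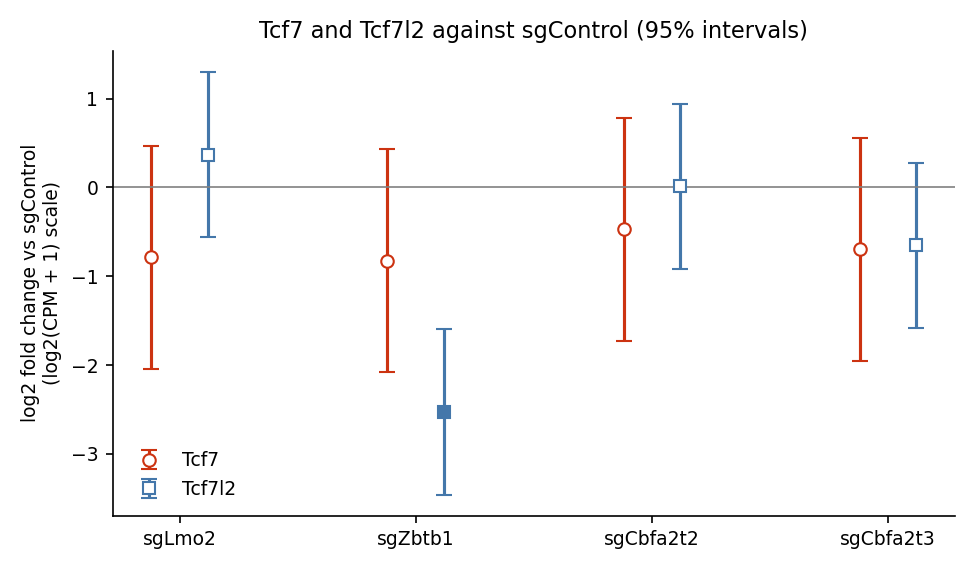
Log2 fold change against sgControl on the log2(CPM + 1) scale (y axis) for *Tcf7* (circles) and *Tcf7l2* (squares) in the libraries labelled with each sgRNA (x axis). Error bars are 95% intervals of the limma fit, and a filled symbol has an adjusted p under 0.05. The only filled symbol is *Tcf7l2* in sgZbtb1, at -2.53.

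The OP9 feeder cells could add RNA to a sorted sample, so their markers were read beside this result. The 10 stromal markers summed to 4.63 to 12.3 CPM in sgControl and to 1.96 to 6.14 CPM in sgZbtb1. *Col3a1*, *Dcn* and *Lum*, which encode abundant products of stromal cells, were at 0 in all 15 libraries, and *Col1a1* reached at most 2 reads in any. Over the 15 libraries *Fn1* had 26 reads, *Sparc* 16, *Col1a2* 15, *Cxcl12* 7 and *Vcam1* 3. From sgControl to sgZbtb1, *Fn1* went from 5 to 1 reads and *Vcam1* from 3 to 0. *Sparc* and *Col1a2* each went from 1 to 2 and *Col1a1* from 0 to 2, and *Cxcl12* had 0 in both. Most of the sum came from *Pdgfrb*, a receptor of mesenchymal cells, at 7.19 ± 2.40 CPM in sgControl and 2.70 ± 3.03 CPM in sgZbtb1 (SD, n = 3 each, limma adjusted p = 0.0799). Its part in the *Tcf7l2* result was not tested.

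Markers of the progenitors and of the B lineage also moved in the libraries labelled sgZbtb1. The 7 progenitor markers summed to 1156 to 1258 CPM in sgControl and 1147 to 1229 CPM in sgZbtb1, so that the sums overlapped. Within that list *Kit* (the SCF receptor) and *Ptprc* (CD45) fell and *Cd93* (a surface marker of early progenitors) rose. Their log2 fold changes were -1.14, -0.28 and 0.52 (adjusted p in limma of 0.0205, 0.0393 and 0.000159). The 6 B-lineage markers summed to 311 to 375 CPM in sgControl and 212 to 228 CPM in sgZbtb1. Nearly all of that sum was *Ebf1*, whose 3′ reads can come from the disrupted gene, and *Cd79a* was at 0 in all libraries. *Pax5*, the B-lineage commitment factor, fell with a log2 fold change of -2.19 (limma adjusted p = 0.0042). The part of these shifts in the *Tcf7l2* result was not tested. In bulk libraries fewer cells with *Tcf7l2* and less *Tcf7l2* RNA per cell cannot be told apart.

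The Zbtb1 list held 2 peaks whose nearest gene was *Tcf7l2*, and the Cbfa2t3 list held none. ChIP-seq pulls down DNA with a protein bound to it, and each list holds the peaks reproducible in 2 replicates with a normalized peak score, without an error of its own. The stronger peak, at chr19:55768873-55769243, had a score of 63.8 and ranked 1027 of 5898. It lies in an intron (intron 4 of 14 of the annotated transcript), 27248 bp downstream of the start, and overlaps no exon in GENCODE. The weaker peak, at chr19:55742946-55743316, had a score of 20.9, under the list's median of 28. It overlaps exons of 16 of the 22 annotated transcripts, and its centre lies in coding sequence, 1321 bp from the start. A Zbtb1 peak is no rare property, since 26.8% of the genes tested were the nearest gene of at least 1, and 18.9% of the nearest genes had 2 or more. The 200 bp at the centre of the intron peak are printed because this is the strongest peak of either list at the member whose mRNA fell. They are chr19:55768959-55769158 of GRCm38, the assembly behind mm10, on the plus strand, and capitals mark matches to the Runx core TGTGGT on either strand.
*Tcf7l2* intron peak: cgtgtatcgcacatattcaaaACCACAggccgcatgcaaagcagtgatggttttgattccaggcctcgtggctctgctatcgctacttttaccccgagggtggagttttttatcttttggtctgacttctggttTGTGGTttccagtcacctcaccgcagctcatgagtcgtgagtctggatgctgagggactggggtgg

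The window holds 2 matches to the Runx core, a motif present in 41.3% of all 5890 Zbtb1 peak windows. No match to the ZBTB core TGGTGGT, the E-box CAGCTG, the ETS core GGAAGT, the RBPJ core TGGGAA or the TCF/LEF core CTTTGA was found on either strand. The window of the exon peak held no match to any of the 6 motifs and was rich in G and C, at 70.5% against a median of 59.5% over the list.

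**Figure D3:**
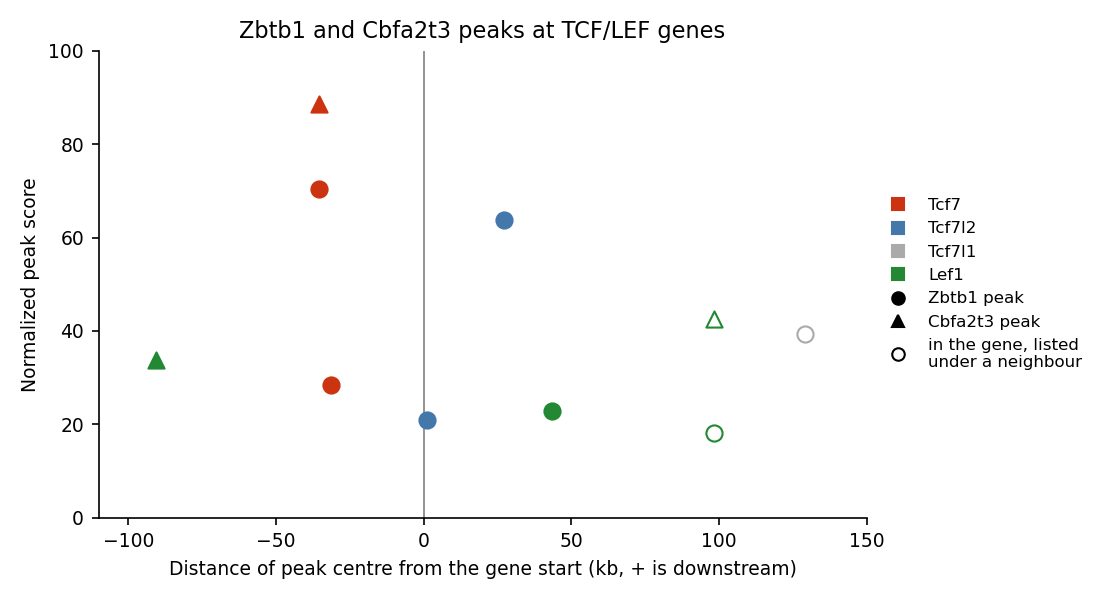
Normalized peak score (y axis) against the distance of the peak centre from the start of the gene in GENCODE (x axis, kb, positive downstream) for the peaks of both lists at TCF/LEF genes. Circles are Zbtb1 peaks and triangles Cbfa2t3 peaks, colours are genes, and open symbols lie inside a member gene but are listed under a neighbour. The 2 highest symbols are the shared peaks upstream of *Tcf7*, at 70.3 and 88.6, and *Tcf7l2* has Zbtb1 peaks only.

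The mRNA of *Tcf7* (ENSMUSG00000000782; chromosome 11, minus strand, 52252371 to 52283014) was near the limit of detection. It was over the 3-read floor in 4 of the 15 libraries. Reads in the 3 replicates were 1, 9 and 4 in sgControl, 0, 1 and 6 in sgLmo2, 3, 1 and 1 in sgZbtb1, 2, 3 and 3 in sgCbfa2t2, and 1, 1 and 4 in sgCbfa2t3. The spread inside sgControl, from 0.58 to 5.21 CPM, was wider than any difference between the group means. No comparison passed. Against sgControl the log2 fold change of *Tcf7* was -0.83 under sgZbtb1, -0.79 under sgLmo2, -0.69 under sgCbfa2t3 and -0.47 under sgCbfa2t2 (standard error 0.63 for each, limma adjusted p from 0.537 to 0.93). The 4 share the same sgControl libraries, so that their common sign is not independent evidence. Counting error alone left the summed reads in sgZbtb1 at 0.311 of sgControl (95% interval 0.0877 to 0.914), an interval without the replicate error. The fitted value rested on single sgControl libraries, as it was -0.35 without sgControl replicate 2 and -1.34 without sgControl replicate 1. A change of *Tcf7* was not detected with this few reads and this spread between replicates. The 95% interval of the log2 fold change in sgZbtb1 ran from -2.08 to 0.43.

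The *Tcf7* locus nevertheless held the strongest peaks of the family. A Zbtb1 peak at chr11:52318379-52318749 had a score of 70.3, rank 896 of 5898, and lay in intergenic sequence 35550 bp upstream of the start. A Cbfa2t3 peak at chr11:52318384-52318762 had a score of 88.6, rank 625 of 6077. The peaks shared 366 bp and their centres were 9 bp apart. Over the whole lists, 25.2% of Zbtb1 peaks and 24.4% of Cbfa2t3 peaks overlapped a peak of the other factor by at least 1 bp. Among the peaks listed under a member this was the 1 shared pair. A further Zbtb1 peak, at chr11:52314089-52314459 with a score of 28.4, lay 31260 bp upstream in a CpG island.

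The centre of the shared *Tcf7* peak is printed because it is where both lists meet. The 200 bp are chr11:52318465-52318664 of GRCm38 on the plus strand, opposite to the gene, centred on the Zbtb1 peak. Capitals mark matches to any of the 6 motifs.
*Tcf7* upstream peak: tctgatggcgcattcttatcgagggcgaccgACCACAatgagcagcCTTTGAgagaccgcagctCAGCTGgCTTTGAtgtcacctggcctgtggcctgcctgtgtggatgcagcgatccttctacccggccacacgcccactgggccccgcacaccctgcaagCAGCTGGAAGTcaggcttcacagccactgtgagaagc

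In this window were 1 Runx core, 2 E-boxes, 1 ETS core that runs into the second E-box, and 2 TCF/LEF cores on the printed strand, 25 bp apart. The TCF/LEF core is the family's own recognition sequence. It was present in 3 of the 5 Zbtb1 windows listed under a member and in 7.67% of all Zbtb1 windows, and in 1 of 2 Cbfa2t3 windows against 10.5% of all. The E-box was present in 15.5% of all Zbtb1 and 47.4% of all Cbfa2t3 windows, and the ETS core in 19.1% and 32.7%. The ZBTB core, present in 15.8% of Zbtb1 windows, was in no window listed under a member. A match is a run of letters and does not show binding, and 7 windows, 2 of which cover the same place, are too few to compare with the lists.

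The genes on either side of *Tcf7* were abundant. *Vdac1*, a mitochondrial channel whose start is 42296 bp from the shared peak, was at 231 CPM on average, and *Skp1a*, a ubiquitin ligase subunit, at 273 CPM. Neither passed the threshold in any of the 4 comparisons with sgControl. For *Vdac1* the largest log2 fold changes were 0.31 under sgCbfa2t3 and 0.30 under sgZbtb1 (limma adjusted p = 0.193 and 0.0721). The first intron of *Vdac1* held a Zbtb1 peak of its own, at chr11:52360978-52361348 with a score of 47.9. This is close to the start of the gene, at 52360860 on the plus strand.

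*Lef1* (ENSMUSG00000027985) lies on the plus strand of chromosome 3, from 131110471 to 131224356. It had at most 3 reads in a library and 11 in all, spread over 7 libraries, so that no library was over the floor. Reads were 0, 3 and 1 in sgControl, 0, 1 and 0 in sgZbtb1, 0, 3 and 0 in sgCbfa2t2, 1, 0 and 1 in sgLmo2, and 0, 1 and 0 in sgCbfa2t3. No fold is given, since both groups are at or under the floor, and *Lef1* did not enter the fit, which took genes with a mean above 1 CPM. The gene had peaks all the same. A Zbtb1 peak at chr3:131153879-131154249, with a score of 22.8, lay in intron 3 of 11. A Cbfa2t3 peak at chr3:131019629-131020007, with a score of 33.7, lay 90479 bp upstream in intergenic sequence.

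A second place where both factors met in the family was listed under another gene. In the last intron of *Lef1*, 98252 bp downstream of the start, a Zbtb1 peak at chr3:131208538-131208908 with a score of 18.1 and a Cbfa2t3 peak at chr3:131208499-131208877 with a score of 42.6 shared 340 bp. The lists name *Hadh*, a fatty acid oxidation enzyme, as their nearest gene by start site. Counting by position inside the gene instead of the nearest start would therefore give *Lef1* a shared pair. It would leave out the pair at *Tcf7*, which lies upstream of that gene. The *Lef1* intron 3 window is printed as it holds both a Runx core and a TCF/LEF core, in capitals, at chr3:131153965-131154164 on the plus strand of GRCm38.
*Lef1* intron peak: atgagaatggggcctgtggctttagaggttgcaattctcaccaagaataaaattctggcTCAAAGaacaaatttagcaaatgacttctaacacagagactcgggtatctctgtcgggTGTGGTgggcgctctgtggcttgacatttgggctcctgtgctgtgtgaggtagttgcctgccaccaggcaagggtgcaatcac

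*Tcf7l1* (ENSMUSG00000055799) lies on the minus strand of chromosome 6, from 72626378 to 72789254. It had reads in 4 of the 15 libraries. These were sgControl replicate 3 with 2 reads, sgZbtb1 replicate 2 with 5, sgCbfa2t3 replicate 2 with 1 and sgCbfa2t3 replicate 3 with 6. In the libraries with 5 and 6 reads the 10 stromal markers summed to 3.35 and 6.09 CPM, in the lower part of the range of 1.96 to 14.2 CPM over all libraries. Within the list, *Col1a1* had its highest count there, 2 reads in each. *Col1a2* was at 2 and 4 reads, *Sparc* at 2 and 0 and *Pdgfrb* at 1 and 5, and the other 6 markers had none. Whether feeder cells took part in the *Tcf7l1* reads was not tested. No peak of either list had *Tcf7l1* as its nearest gene. A Zbtb1 peak with a score of 39.4 in the third intron, at chr6:72659985-72660355, was listed under *Gm15401*.

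Together the 4 genes were at 16.8, 11.0 and 17.6 CPM in sgControl and at 3.35, 3.35 and 1.96 CPM in sgZbtb1, with no overlap. The other conditions ranged from 3.99 CPM in sgCbfa2t3 replicate 2 to 18.6 CPM in sgLmo2 replicate 3. Most of this difference was *Tcf7l2*, which made up 58 of 78 family reads in sgControl and 6 of 17 in sgZbtb1. By library it had 28 of 29, 7 of 19 and 23 of 30 family reads in sgControl and 3 of 6, 0 of 7 and 3 of 4 in sgZbtb1. The shares of the groups overlapped, so that a change in the makeup of the family was not shown at this depth. In sgLmo2, sgCbfa2t2 and sgCbfa2t3 the share over the summed reads was 89.2%, 84.5% and 72.5%. *Tcf7* had 5 reads, *Tcf7l1* 5 and *Lef1* 1 over the 3 sgZbtb1 libraries.

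**Figure D4:**
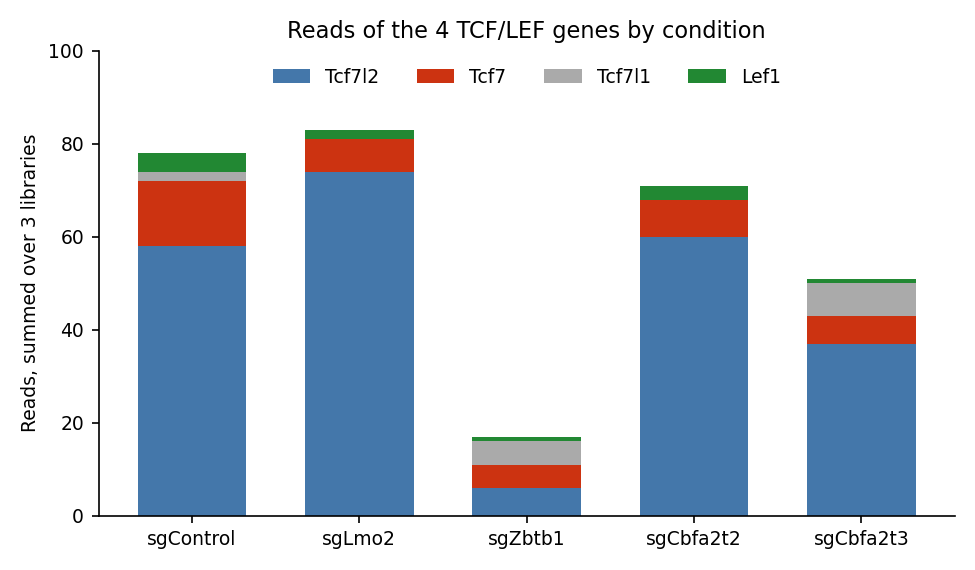
Reads of the 4 TCF/LEF genes summed over the 3 libraries of each condition (y axis, linear from 0), stacked by gene. The sgZbtb1 bar reaches 17 reads and the other bars 51 to 83, and *Tcf7l2* is the largest part of each of those 4. The total reads behind the bars ran from 5155099 in sgControl to 6044775 in sgCbfa2t2.

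The partners of the family were read from 8 lists with 95 genes, of which 52 passed the filter for testing. Under sgZbtb1, 5 of the 52 fell and 0 rose, 9.62% against 4.79% of all genes tested. The median log2 fold change was -0.04 over the lists and -0.03 over all genes. In sgLmo2, sgCbfa2t2 and sgCbfa2t3 none passed in limma, with 3, 5 and 12 of the 52 genes at an unadjusted p under 0.05. These are 5.77%, 9.62% and 23.1% of the lists, beside 5.65%, 9.56% and 10.6% of all genes tested. In sgZbtb1 there were 16, which is 30.8% beside 17.6%. EdgeR on the recovered reads called 0, 0 and 2 list genes in the same 3 comparisons, where it called 0.0173%, 0.147% and 0.502% of all genes. DESeq2 called 0, 0 and 1, where it called 0.026%, 2.73% and 0.587% of the 11554, 1026 and 8866 genes to which it gave an adjusted p. The lists were drawn up with earlier results of these data known.

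Wnt ligands were hardly present as RNA. Of 21 genes for Wnt ligands and their secretion, 17 had no read, and the highest were *Wls*, the carrier of Wnt proteins, at 18.2 CPM and *Wnt10a* at 2.66 CPM. *Porcn*, which lipidates Wnts, was among those without a read. Of 15 receptor genes 3 were tested, the co-receptors *Lrp6* at 58.3 CPM and *Lrp5* at 17.8 CPM and the Frizzled gene *Fzd7* at 6.01 CPM. The feedback targets *Axin2*, *Lgr5*, *Sp5*, *Notum* and *Dkk1* had no read in any library, while *Znrf3*, a ligase that removes Frizzled, was at 17.6 CPM and *Nkd1* at 2.58 CPM. None of these 3 lists had a gene that passed in any comparison with sgControl by limma.

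The intracellular machinery was expressed. Of the 14 genes of β-catenin turnover 13 were tested, led by the kinases *Csnk1a1* at 499 CPM and *Gsk3b* at 287 CPM, and none passed in the 4 comparisons by limma. *Ctnnb1*, the gene of β-catenin, was at 397 ± 18.2 CPM in sgControl and 392 ± 16.1 CPM in sgZbtb1 (SD over 3 libraries each), and the log2 fold change of -0.02 had a 95% interval of -0.19 to 0.15. *Bcl9l*, which ties β-catenin to its co-activators, was at 309 CPM on average. *Jup* (plakoglobin, a relative of β-catenin that also builds cell junctions) was the 1 of 7 co-activator genes that fell. It was at 25.6, 20.8 and 23.5 CPM in sgControl and at 9.50, 12.9 and 7.37 CPM in sgZbtb1, with no overlap and a log2 fold change of -1.18 (limma adjusted p = 0.00696). Without sgZbtb1 replicate 3 the call of *Jup* was lost (limma adjusted p = 0.07).

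Among the 13 co-repressor genes, led by *Chd8* at 205 CPM and *Hdac2* at 188 CPM, *Tle1* fell. This Groucho gene was at 4.64, 3.47 and 5.86 CPM in sgControl (8, 6 and 10 reads) and had 0, 1 and 0 reads in sgZbtb1. The log2 fold change was -2.29 (limma adjusted p = 0.0101), and 1 read against 24 rests on few counts. The fitted size of the *Tle1* change depends on how the zeros are handled, at -4.70 with a pseudocount of 0.1, -4.32 in edgeR and -4.66 in DESeq2. Its call was lost without sgControl replicate 3 or sgZbtb1 replicate 3 (limma adjusted p = 0.0639 and 0.0504). Other Groucho genes were named after their values were seen. *Tle2* was at 1.74, 4.63 and 1.76 CPM in sgControl, at 0.558, 0.478 and 0 CPM in sgZbtb1, and at 16.6, 6.28 and 18.3 CPM in sgCbfa2t3. Neither comparison of *Tle2* with sgControl passed (limma adjusted p = 0.112 in sgZbtb1 and 0.0678 in sgCbfa2t3), but that in sgZbtb1 did with a pseudocount of 0.1 (limma adjusted p = 0.0288), and that in sgCbfa2t3 did in edgeR (adjusted p = 0.0435). Between sgZbtb1 and sgCbfa2t3 the log2 difference of *Tle2* was -3.36 (limma adjusted p = 1.24e-05), and that of *Tle6* was -2.08 (limma adjusted p = 0.00044). *Tle5*, the short member that lacks the WD repeats of the others, was at 163 ± 4.13 CPM in sgControl and 219 ± 34.0 CPM in sgCbfa2t3 (SD, n = 3 each, limma adjusted p = 0.0684). It passed in edgeR and DESeq2 (adjusted p = 0.0438 and 0.047), with the replicate number as a block (0.0333) and without sgCbfa2t3 replicate 1 (0.0155). For *Tle3*, a far more abundant Groucho gene at 125 CPM, the log2 difference was -0.22 between sgCbfa2t3 and sgControl (95% interval -0.47 to 0.02) and 0.08 between sgZbtb1 and sgCbfa2t3 (95% interval -0.17 to 0.33), and neither passed.

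Upstream of *Tcf7*, the 6 genes of the Notch input were all tested. *Notch1* was at 149 CPM on average, and its log2 fold change in sgZbtb1 was -0.30 (limma adjusted p = 0.222). *Maml3*, a co-activator of Notch and RBPJ, was at 85.4, 116.9 and 113.8 CPM in sgControl and at 83.2, 68.4 and 52.0 CPM in sgZbtb1. Its log2 fold change was -0.64 (limma adjusted p = 0.0145), and its groups were separated by little, as the highest sgZbtb1 library came close to the lowest sgControl library. The call of *Maml3* was lost without sgControl replicate 2, sgControl replicate 3 or sgZbtb1 replicate 3 (limma adjusted p = 0.106, 0.0958 and 0.185), with all genes above 0 (0.123) and in DESeq2 (0.0532). Of the early T-lineage genes 5 of 8 were tested and 2 fell in sgZbtb1. *Lck*, the kinase of T-cell receptor signalling, had a log2 fold change of -0.87 (limma adjusted p = 0.000116) and *Bcl11b*, a regulator of T-lineage commitment, one of -1.82 (limma adjusted p = 0.00045). *Gata3* was at 33.9 ± 3.8 CPM in sgControl and 36.0 ± 10.4 CPM in sgZbtb1 (SD over 3 libraries each), a log2 fold change of 0.04 with a 95% interval of -0.41 to 0.49.

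**Figure D5:**
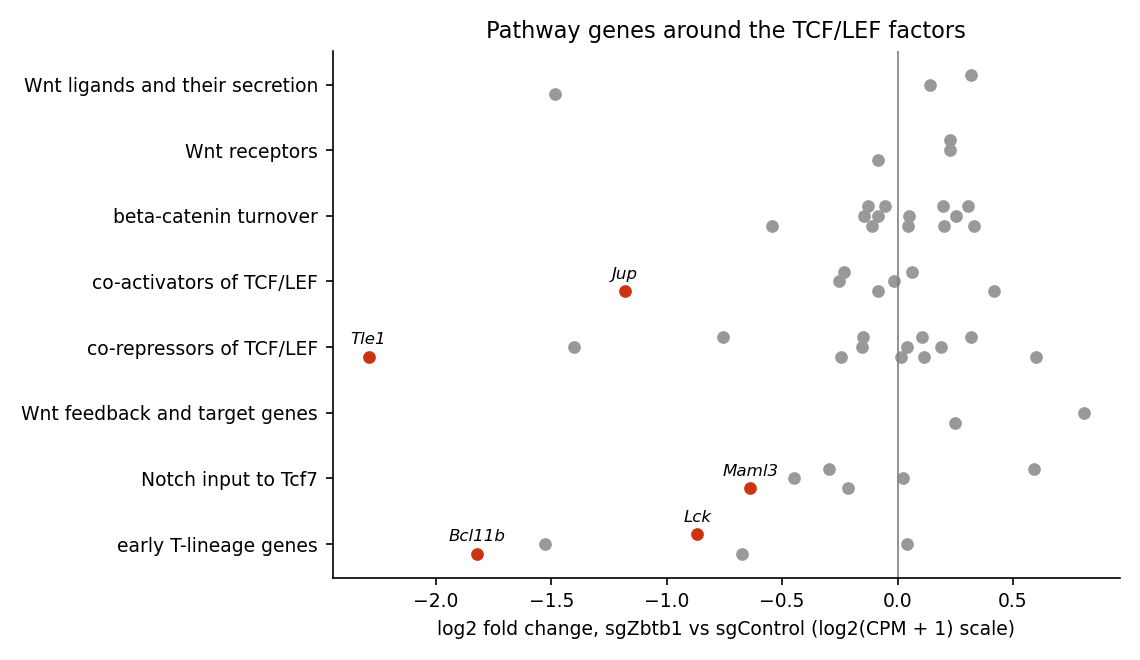
Log2 fold change in the libraries labelled sgZbtb1 against sgControl (x axis, log2(CPM + 1) scale) of the 52 tested genes of 8 lists (y axis, 1 row per list, with points shifted vertically for legibility only). Red points have a limma adjusted p under 0.05 and are named, and grey points do not. The 5 red points lie between -2.29 and -0.64.

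The 5 list genes that fell differed in their peaks. *Maml3* was the nearest gene of a Zbtb1 peak with a score of 112.6 and of 5 Cbfa2t3 peaks. *Jup* had 1 Zbtb1 peak with a score of 19.4 and 2 Cbfa2t3 peaks, the higher with a score of 27.6. *Tle1* had 1 Zbtb1 peak with a score of 24.0 and no Cbfa2t3 peak. *Lck* had no Zbtb1 peak and 1 Cbfa2t3 peak, with a score of 40.6. *Bcl11b* had no peak in either list. Over all 11554 genes tested, a Zbtb1 peak was listed under 26.8% and a Cbfa2t3 peak under 20.5%. Of the genes named in the Cbfa2t3 list 33.0% had 2 or more peaks, and of those in the Zbtb1 list 18.9%. The 5 genes are too few to compare with these shares.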

How the data were processed

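QuantSeq 3′ mRNA reads were trimmed with fastp and mapped to mm10 with STAR by the authors, who deposited per gene and library values scaled to 1 total, which they call TPM and which are CPM because gene length was not used. All values (100%) gave back whole reads, within 0.05 of a read. ChIP-seq peaks came from Bowtie 1.1.1 and HOMER with input as control, and the authors deposited 1 list of reproducible peaks per factor with a peak score of at least 15. Each list pools 2 replicates and gives no read depth.

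Members and gene lists were chosen with earlier results of these data known. Genes with a mean above 1 CPM (11554) entered a limma fit (limma 3.58.1, R 4.3.3) of log2(CPM + 1) with a trend and all 15 libraries, and Benjamini-Hochberg adjustment over all genes. Replicates differed by more than sampling noise (chi-square per degree of freedom 2.25 to 3.75). Intervals of summed reads are exact Poisson or conditional binomial intervals at 95%. Besides the members, the genes named were the targeted genes, the 2 most abundant genes of each list, every list gene that passed in a comparison with sgControl, and the genes flanking *Tcf7*. Named outside this rule, after their values were seen, were *Porcn*, *Fzd7*, *Axin2*, *Lgr5*, *Sp5*, *Notum*, *Dkk1*, *Tle2*, *Tle3*, *Tle5*, *Tle6*, the cell type markers and the neighbours *Hadh* and *Gm15401* of peaks. No member reached the mean of 10 CPM set for naming genes of like pattern. Alternatives were another pseudocount and filter, the 6 libraries alone, edgeR 4.0.16 and DESeq2 1.42.0 on the recovered reads, median-of-ratios size factors, a replicate block, and leaving out each library. Peaks were read as deposited and motifs in 200 bp at peak centres on GRCm38, on either strand, with pysam 0.24.0. The limma fit was tested on simulated counts. The changed genes there had means above 10 CPM, so that recovery at the levels of the members was not tested. The overlap and motif steps were checked on made-up input. The mRNA levels measured by RT-qPCR were not analysed here.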

Additional observations from a re-analysis of the deposited data

How the results depend on the processing

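The fall of *Tcf7l2* in the libraries labelled sgZbtb1 against sgControl kept its direction and its call under all 13 alternatives that gave a value, with log2 fold changes from -3.90 to -2.07 and adjusted p from 1.75e-05 to 0.0199 (limma, edgeR or DESeq2). With a library left out it ranged from -3.07 to -2.07. The same held against sgLmo2 and sgCbfa2t2. Against sgCbfa2t3 the log2 difference of -1.87 lost its call with all genes above 0 (adjusted p = 0.221) and with only the 6 libraries (adjusted p = 0.0961), and with a library left out it ranged from -2.41 to -1.42. A filter at a mean above 10 CPM gives no value, since no member passes it.

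Small differences changed sign without passing a threshold. *Tcf7l2* in sgCbfa2t2 was at -0.18 in edgeR and -0.19 in DESeq2 and ranged from -0.54 to 0.35 with a library left out, where sgControl replicate 2 and sgCbfa2t2 replicate 1 turned it to -0.54 and -0.10. Without sgControl replicate 2, the library with few *Tcf7l2* and many *Tcf7* reads, *Tcf7l2* in sgLmo2 became -0.18 (range -0.18 to 0.71) and *Tcf7* in sgCbfa2t2 0.00543 (range -0.98 to 0.00543). In sgCbfa2t3 *Tcf7l2* ranged from -1.20 without sgControl replicate 2 to -0.12 without sgCbfa2t3 replicate 2. *Tcf7*, which passed in none of these, ranged in sgZbtb1 from -1.34 to -0.35 and in sgCbfa2t3 from -1.20 to -0.22, the ends being without sgControl replicates 1 and 2. In sgLmo2 it ranged from -1.39 without sgLmo2 replicate 3 to -0.31 without sgControl replicate 2. EdgeR and DESeq2 put *Tcf7* in sgZbtb1 at -1.57 and -1.63. The causes were not tested.

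The 5 list genes that passed in sgZbtb1 became 2 to 5 with a library left out, with 3 without sgControl replicate 3 and 2 without sgZbtb1 replicate 3. Over all genes these 2 settings called 330 and 306 in place of 554. *Bcl11b* and *Lck* passed in each setting, *Jup* lost its call without sgZbtb1 replicate 3 (adjusted p = 0.07), and *Tle1* without sgControl replicate 3 or sgZbtb1 replicate 3 (0.0639 and 0.0504). *Maml3* lost it without any of sgControl replicates 2 and 3 and sgZbtb1 replicate 3, with all genes above 0 and in DESeq2. With a pseudocount of 0.1, *Tle2* was added and 6 passed, where 510 of all 11554 genes did. The count of 0 in sgCbfa2t3 became 2 with only the 6 libraries (*Tle2* and *Tle6*), 2 in edgeR (*Tle2* and *Tle5*), 1 in DESeq2 (*Tle5*), and 0 to 1 with a library left out. Over all genes the same settings called 58, 58, 52 and 26 to 59 in sgCbfa2t3, in place of 62. Replicate numbers were not taken as pairs in the main fit. Deviations of same-numbered libraries had a mean correlation of 0.0408, over 0.1 in 2 of 30 pairs. For different-numbered libraries the mean was -0.0204, over 0.1 in 0 of 60 pairs, so that same-numbered libraries were slightly more alike. With the replicate number as a block, 2 list genes passed in sgCbfa2t3 (*Tle2* and *Tle5*), where 93 of 11554 genes did in place of 62. In sgZbtb1 the block called 709 of all genes in place of 554, and *Tcf7l2* had a limma adjusted p of 2.09e-05.

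Counting any peak within 100 kb of the start of any annotated transcript of a member gave 9 Zbtb1 and 5 Cbfa2t3 peaks in place of 5 and 2, by taking in peaks listed under neighbours. Within 100 kb of the gene's own start there were 7 and 3, a count added after seeing the data. A score of at least 30 left 2 Zbtb1 peaks. In whole peak intervals 1 RBPJ core was found in place of 0. At these depths 3 reads limit what can be said of *Tcf7*, *Tcf7l1* and *Lef1*.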
